A study of Mus musculus with 7 samples.

Results

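The genes described here are mainly those of nuclear-encoded subunits of the mitochondrial respiratory chain and ATP synthase. They were measured in the liver of mice that lack C3ar1, the receptor for the complement fragment C3a. The genes were chosen by symbol: names that start with Nduf, Uqcr, Cox4, Cox5, Cox6, Cox7, Cox8 or Atp5, together with Sdha, Sdhb, Sdhc, Sdhd and Cyc1. This also took in 5 complex I assembly factors and a pseudogene, which are counted among the members. The rule found 84 genes on 95 probes, out of 16462 genes with a symbol on 23574 probes. Sdhd was not among the measured genes. Livers of 3 C3ar1-/- mice, numbered 2 to 4 as in the labels, were set against livers of 4 wild-type littermates, numbered 1 to 4. All 7 mice were on a chow diet, and sex, age and strain are not given in the sources used here. How the allele was made is not given either. Each mouse had 1 two-colour array, read against a shared pool that combined the livers of 6 chow-fed wild types. C3ar1 itself read 0.0042, 0.0337 and 0.0514 in knockout livers 2, 3 and 4, against -0.0296, -0.0318, 0.0225 and 0.0264 in wild-type livers 1 to 4. It was thus no lower in the knockouts, with a difference of 0.0329 ± 0.0232 (limma, adjusted p = 0.884). Whether its probe lies in the deleted sequence is unknown, so it does not check the genotype labels.

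Every value below is a log ratio of mouse to pool, read as base 10, and 0 means the level of the pool. The titles name the pool before the mouse and the dyes are labelled alike on all arrays, which does not settle the direction. Neither the direction nor the base is stated, so both are assumptions. A dye swap is mentioned for the study, and how it entered the ratios is unknown. If the direction were turned, every sign would turn with it. The probes of a gene were averaged, which left 22212 features (named genes, and probes without a single gene) for one limma fit. A difference is knockout minus wild type, and a call means an adjusted p under 0.05 over all features. A ratio to a pool gives no level, so one gene's value cannot be set against another's, and the labelled tissue could not be checked by its markers. Fewer cells of a type and less RNA per cell cannot be told apart in whole liver.

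The respiratory chain carries electrons from NADH and succinate to oxygen across the inner mitochondrial membrane and pumps protons as it does so. Complex I oxidises NADH, complex II oxidises succinate, complex III passes electrons from ubiquinol to cytochrome c, and complex IV hands them to oxygen. Complex V, the ATP synthase, lets the protons back through its membrane rotor and makes ATP. Most subunits are encoded in the nucleus and some in mitochondrial DNA, and in the liver this machinery serves fatty acid oxidation, gluconeogenesis and urea synthesis. None of the 13 mitochondrially encoded subunits had a probe with its symbol here, so every result concerns nuclear genes.

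The 84 genes comprised 33 complex I subunits, 5 complex I assembly factors, 3 subunits of complex II, 8 of complex III and 16 of complex V. Complex IV had 12 subunits that are broadly expressed and 6 isoforms known mainly from other tissues. Ndufa4, named for complex I and later recognised as a subunit of complex IV, was counted with complex IV. The remaining gene was Atp5l2-ps, a pseudogene of an ATP synthase subunit.

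Promoters of these genes are known for sites of NRF1, of ETS-family factors such as GABPA, and of YY1, and the sequences were searched because such sites are a feature that the rule did not use. RefSeq promoter windows on the GRCm38.p6 build, from 250 bases before to 50 after the start, were matched for 67 of the 84 genes. On either strand, an NRF1-type motif, GCGC followed by any base and TGCGC, was found in 16 of the 67 genes (23.9%), against 5.19% of all 27025 genes with a window. The ETS-type CCGGAAG was also found in 16 (23.9%), against 9.93% of all genes. The YY1-type AAGATGGC was found in 10 (14.9%), against 3.19%. At least 1 of the 3 motifs was found in 37 of the 67 genes (55.2%), against 16.4% of all genes. The motifs do not contain each other, and a match describes letters in a window only. The sequences show the 250 bases before the start of 1 gene for each motif, with the motif letters in capitals. Each is the gene of smallest unadjusted p among those whose match lies wholly before the start. For the YY1 type only Atp5j had such a match, and its unadjusted p was 0.868 (limma). The Sdha window (chr13:74350241-74350490, minus strand) holds the NRF1-type motif, Ndufb6 (chr4:40279422-40279671, minus strand) the ETS type, and Atp5j (chr16:84834977-84835226, minus strand) the YY1 type with an ETS-type match after it. Sdha and Ndufb6 are described with their complexes, and Atp5j, a coupling factor of the ATP synthase stalk, differed by -0.00388 ± 0.0225.
Sdha: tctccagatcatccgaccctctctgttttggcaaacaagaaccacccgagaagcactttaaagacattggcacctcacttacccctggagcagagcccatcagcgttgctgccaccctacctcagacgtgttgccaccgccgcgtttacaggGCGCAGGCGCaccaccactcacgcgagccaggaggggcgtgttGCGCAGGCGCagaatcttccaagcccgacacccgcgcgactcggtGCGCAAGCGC
Ndufb6: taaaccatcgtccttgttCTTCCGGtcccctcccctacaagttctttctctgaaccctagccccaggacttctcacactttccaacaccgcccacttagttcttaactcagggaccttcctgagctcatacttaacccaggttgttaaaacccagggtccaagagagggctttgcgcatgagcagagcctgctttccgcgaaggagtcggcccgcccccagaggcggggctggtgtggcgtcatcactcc
Atp5j: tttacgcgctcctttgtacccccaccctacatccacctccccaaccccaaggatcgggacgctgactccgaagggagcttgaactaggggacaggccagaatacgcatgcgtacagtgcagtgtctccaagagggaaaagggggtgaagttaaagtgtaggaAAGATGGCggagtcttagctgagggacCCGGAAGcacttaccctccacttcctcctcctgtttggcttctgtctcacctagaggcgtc

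The 7 arrays differed among themselves, and 2 knockouts stood apart in these genes. In knockout liver 4 the log ratio lay below 0 in 70 of the 84 genes (83.3%), against 44.0% of all features on that array. Knockout livers 2 and 3 had 34 and 21 such genes, against 28, 41, 46 and 29 in wild-type livers 1 to 4. Thus the single knockout with most of these genes under the pool was liver 4, while liver 3 had the smallest number of the 7 mice. The median over the 84 genes was 0.0143, 0.0197 and -0.0272 in knockout livers 2, 3 and 4, against 0.0234, 0.00345, -0.00525 and 0.0251 in wild-type livers 1 to 4.

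**Figure D1:**
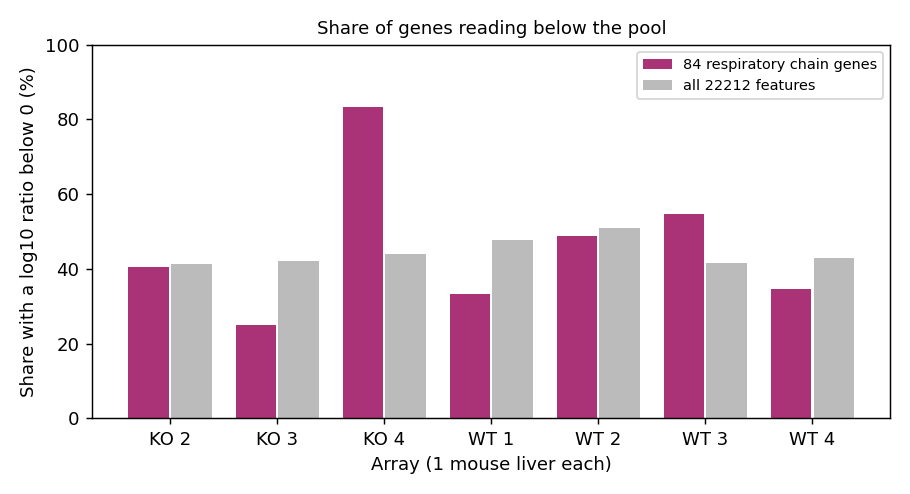
Share of genes with a log10 ratio below 0 on each array, in percent, for the 84 respiratory chain and ATP synthase genes (purple) and for all 22212 features (grey). Knockout liver 4 stands at 83.3% for these genes, and each of the other 6 arrays lies at or below 54.8%.

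Knockout liver 2 stood apart by its spread. The SD over the 84 genes was 0.0975 there, with 0.0290 and 0.0398 in knockout livers 3 and 4, against 0.0365 to 0.0486 for the wild types. The SD over all features was likewise largest on that array, at 0.0968, against 0.0466 to 0.0675 on the others. In that liver 11 genes lay below -0.1 and 13 above 0.1, which is 24 of 84, where 20.8% of all features were as far from 0. The lowest was Uqcrfs1, the Rieske iron-sulfur protein of complex III, at -0.342, and the highest was Ndufs7, an iron-sulfur subunit of complex I, at 0.169. Between 1 and 8 genes were as far from 0 on each of the other arrays, and 3.46% to 8.32% of all features.

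**Figure D2:**
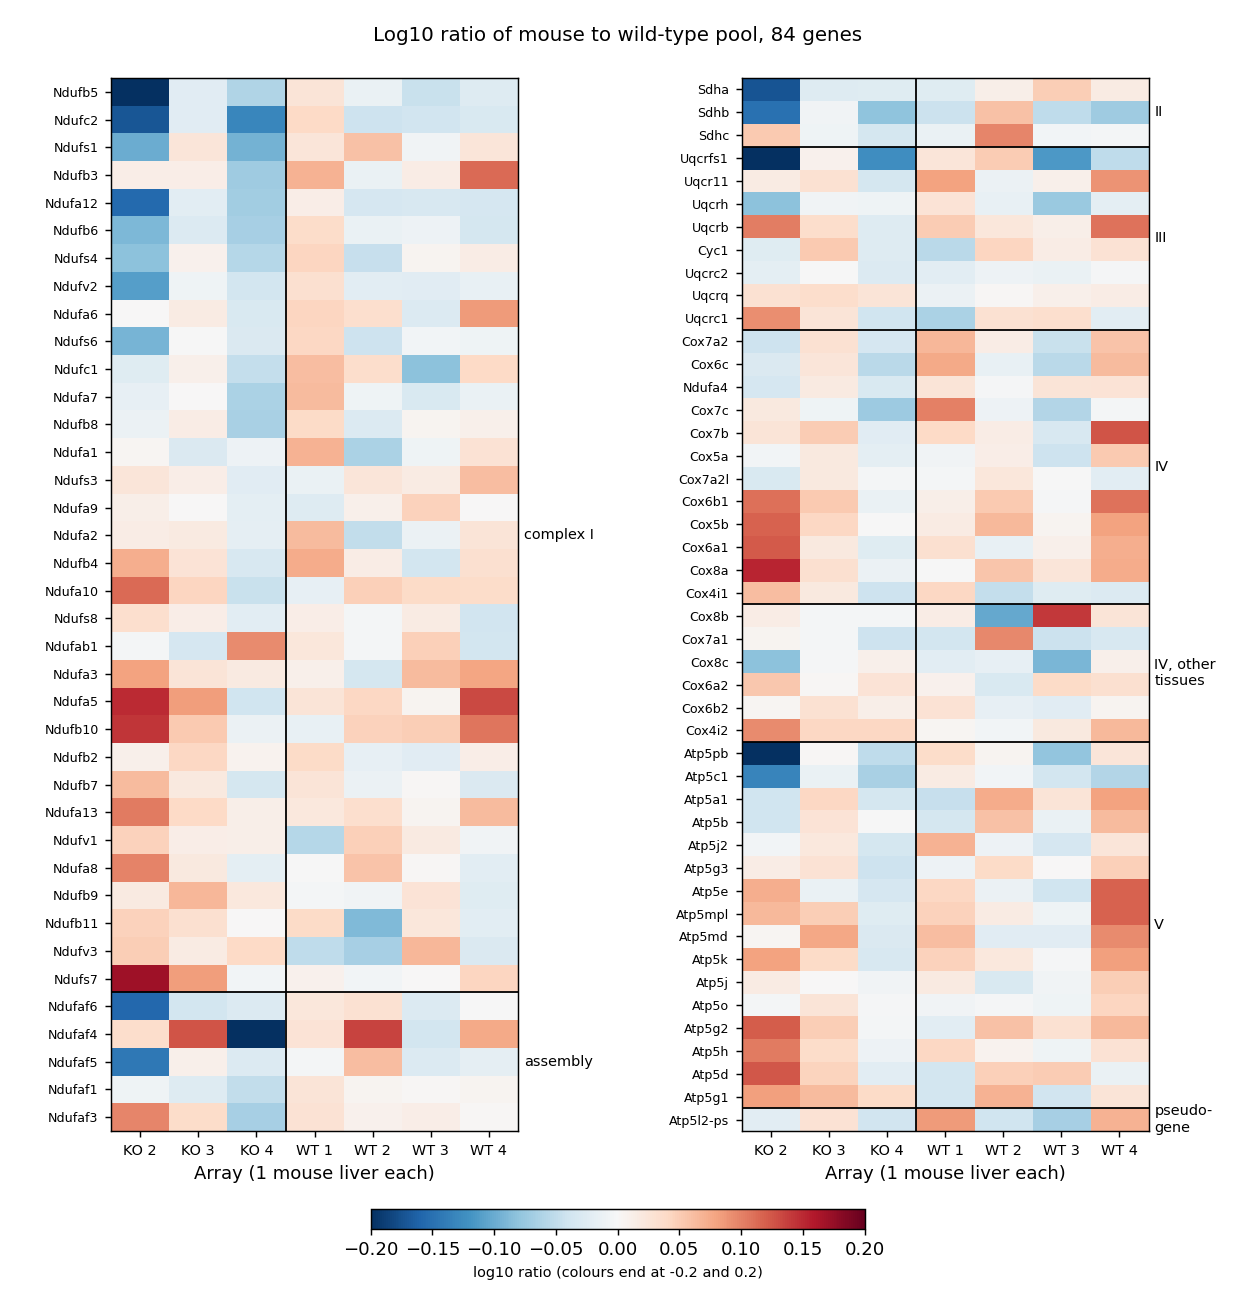
Log10 ratio of mouse to wild-type pool for the 84 genes (rows, grouped by complex and ordered by difference within it) on the 7 arrays (columns, knockouts on the left). The colour scale ends at -0.2 and 0.2, and Uqcrfs1, Ndufb5 and, on knockout array 4, Ndufaf4 lie beyond its lower end. Knockout liver 2 holds the darkest cells of both colours, and knockout liver 4 is blue in 70 rows.

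Markers of other cells moved on the same arrays. The list mean of Kupffer cell markers was -0.156, -0.234 and 0.151 in knockout livers 2, 3 and 4, against -0.314 to -0.118 in the wild types. All 6 of its measured genes had a higher mean in the knockouts, with differences up to 0.365 for Marco (adjusted p = 0.884). Each of the 6 was above 0 in knockout liver 4, the liver in which the respiratory genes were low, and without that liver the list difference of 0.108 became -0.00794. The mean of 4 neutrophil markers was -0.111, -0.115 and 0.103 in knockout livers 2 to 4, against -0.0829 to -0.0290 in the wild types. The mean of 6 endothelial markers was -0.00722, -0.0276 and 0.0462 in knockout livers 2 to 4, against -0.0486 to 0.00977 in the wild types. The mean of 6 stellate cell markers was -0.0219, -0.0147 and 0.0300 in knockout livers 2 to 4, against -0.0976 to -0.0134 in the wild types. The means of all 4 lists were thus highest in knockout liver 4, but their single genes did not all follow. The stellate gene Col3a1 was lowest there, at -0.0465, and the endothelial gene Stab2 was highest in knockout liver 2, at 0.143. Lymphocyte, biliary and erythroid markers averaged 0.0170, 0.0238 and -0.0223 in knockout liver 4. These were below 0.0178, 0.154 and 0.0483 in wild-type livers 4, 2 and 4. The mean of 8 hepatocyte markers was -0.0112, 0.111 and 0.0731 in knockout livers 2 to 4, against -0.0715 to 0.118 in the wild types. Ratios give no absolute level of any marker, and the part of other cells in the respiratory gene values was not tested.

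The comparison of genotypes asked whether the loss of C3ar1 goes with another level of this machinery in liver. No member was called: 0 of 84 passed, against 1 of 22212 features (0.0045%), and the members' adjusted p ran from 0.884 to 0.999 (limma). At an unadjusted p under 0.05, a level at which 2.66% of all features were lower and 1.89% higher, 3 members were lower and 0 higher. All 3 knockout values lay below all 4 wild-type values in 2 members, against 2.56% of all features. They lay above in 1 member, against 2.71%. These shares of 84 are near those of all features.

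The sign of the differences leaned to lower values in the knockouts. It was negative in 52 of 84 members (61.9%), against 42.8% of all features, and the median difference was -0.0102, against 0.00558 over all features. The mean over all 84 genes was 0.00298, 0.0200 and -0.0280 in knockout livers 2, 3 and 4, against 0.0177, 0.00851, -0.00642 and 0.0270 in wild-type livers 1 to 4. The knockout values thus overlapped the wild types, with only liver 4 below all of them. Without knockout liver 4 the difference was negative in 38 members (45.2%), against 42.6% of all features, and the median became 0.00263. Without knockout liver 2 it was negative in 66 members (78.6%), against 46.6% of all features. Wild types moved it too. Without wild-type liver 4 it was negative in 44 members (52.4%), against 42.6% of all features, with a median of -0.00085, against 0.00657. Without wild-type liver 3 it was negative in 55 (65.5%), against 43.1%, with a median of -0.0212, against 0.00623. With quantile normalization it was negative in 60 members (71.4%), against 45.8% of all features. With scale normalization it was negative in 57 (67.9%), against 44.65%. With array weights it was negative in 46 members (54.8%), against 45.35% of all features, with a median of -0.00386, against 0.00309. The weights were 0.4385, 3.22 and 0.8041 for knockout livers 2, 3 and 4, so the weighted knockout value came mostly from liver 3. Without knockout liver 3, which lay highest, 12 members were under an unadjusted p of 0.05, all lower and Ndufs1, Sdha and Uqcrfs1 among them, against 3.93% of features lower. In 14 members both remaining knockouts then lay below every wild type, against 7.03% of features, and 0 were called (limma, smallest adjusted p 0.620).

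**Figure D3:**
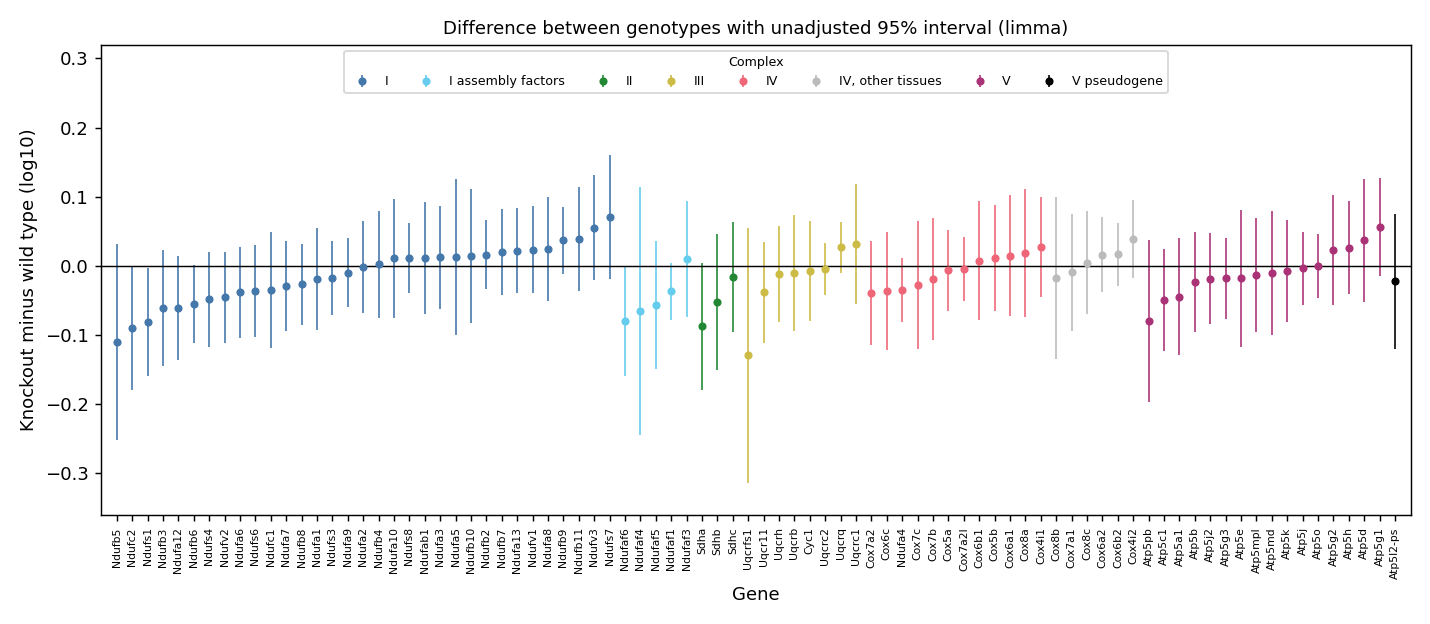
Knockout minus wild type on the log10 scale for each of the 84 genes, with its unadjusted 95% interval from limma, coloured by complex and ordered within it. The intervals of 3 genes, Ndufs1, Ndufc2 and Ndufaf6, exclude 0 narrowly, and the widest belongs to Uqcrfs1. Which genes do so changes with the processing.

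The precision of these values can be read from the intervals. The median 95% half-width of a member's difference was 0.0750, or 1.19-fold in base 10. For 43 of the 84 genes the whole unadjusted interval lay within 0.1 on either side of 0, that is within 1.26-fold, a bound chosen after seeing the data. In 2 genes, Uqcrfs1 and Ndufb5, the difference itself was beyond that bound.

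In complex I the core subunits carry the flavin and the iron-sulfur clusters through which electrons pass. Of the 6 measured, 3 differed upward and 3 downward, with a median of -0.00293. Ndufs1, an iron-sulfur subunit of the peripheral arm, read -0.0986, 0.0240 and -0.0951 in knockout livers 2, 3 and 4, against 0.0241, 0.0582, -0.0066 and 0.0237 in wild-type livers 1 to 4. Knockouts 2 and 4 lay below every wild type and knockout 3 among them. The difference was -0.0814 ± 0.0336 (SE), or 1.21-fold with an interval from 1.01 to 1.44 (limma, adjusted p = 0.884). Ndufv1, which binds NADH and FMN, differed by 0.0230 ± 0.0271 (adjusted p = 0.889). Ndufs7 had the largest upward difference of all members, at 0.0706 ± 0.0384, and this rested on knockout liver 2, since it was 0.0277 without it.

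The 27 accessory subunits of complex I surround the core and stabilise it, and 14 differed downward and 13 upward. Ndufc2, of the membrane arm, read -0.172, -0.0225 and -0.131 in knockout livers 2, 3 and 4, against 0.0406, -0.0413, -0.0388 and -0.0311 in wild-type livers 1 to 4. The difference was -0.0906 ± 0.0385, or 1.23-fold with an interval from 1.00 to 1.51 (limma, adjusted p = 0.884), and it was -0.0589 without knockout liver 2. Knockouts 2 and 4 were the lowest arrays, and knockout 3 lay above 3 of the wild types. Ndufb6, another membrane arm subunit, read -0.0895, -0.0270 and -0.0663 in the knockouts, against 0.0369, -0.0138, -0.0106 and -0.0353 in the wild types, and the groups overlapped through knockout 3. Its difference was -0.0552 ± 0.0242. Ndufb5 had the largest downward difference of complex I, -0.111 ± 0.0608, which came from -0.292 in knockout liver 2 and was -0.0269 without it.

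A few complex I genes were described for other reasons. Ndufab1, the mitochondrial acyl carrier protein, read -0.0044, -0.0331 and 0.0943 in knockout livers 2 to 4, against -0.0375 to 0.0476 in the wild types, so it went above 0 in liver 4 when most others went below. Ndufa9 is encoded near C3ar1 and was 1 of 4 members on chromosome 6. It read 0.0118, 0.0013 and -0.0200 in the knockouts, against -0.0260, 0.0104, 0.0460 and 0.0008 in the wild types. The groups overlapped and the difference was -0.0101 ± 0.0215 (limma, adjusted p = 0.930). Its promoter window holds the YY1-type motif.

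For 10 genes there was more than 1 probe, and in 3 of them the probes differed in sign. Ndufb2, an accessory subunit of complex I, showed the widest gap. Its first probe read -0.0406, -0.0001 and -0.0407 in the knockouts, against 0.0714, -0.0256, -0.0356 and 0.0484 in the wild types. Its second probe read 0.0609, 0.0825 and 0.0533 in the knockouts, against 0.0059, -0.0074, -0.0082 and -0.0216 in the wild types, without overlap. The differences were -0.0418 ± 0.0310 and 0.0734 ± 0.0169, both with an adjusted p of 0.884 over all probes, and the average was 0.0158. Atp5j2, the f subunit of ATP synthase, gave 0.0147 and -0.0518 with its 2 probes, and Uqcrc2, a core protein of complex III, gave -0.0240 and 0.0155. Which transcripts the probes of a gene detect is unknown here.

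Assembly factors of complex I bind assembly intermediates and leave before the enzyme is complete. Of the 5 measured, 4 differed downward, and in 2 the groups did not overlap, where 2.56% of all features were lower without overlap. Ndufaf4, at -0.0657 ± 0.0771, was among the 4 and became 0.0298 without knockout liver 4. Ndufaf1, which helps build the membrane arm, read -0.0081, -0.0253 and -0.0490 in knockout livers 2, 3 and 4, against 0.0250, 0.0050, 0.0026 and 0.0047 in wild-type livers 1 to 4. The difference was -0.0368 ± 0.0176, or 1.09-fold (limma, adjusted p = 0.884). Ndufaf6 read -0.157, -0.0369 and -0.0279 in the knockouts, against 0.0220, 0.0307, -0.0272 and -0.0005 in the wild types. It differed by -0.0801 ± 0.0342, with knockout 4 and wild-type 3 nearly level, and by -0.0387 without knockout liver 2. Ndufaf5, which modifies Ndufs7, differed by -0.0565 ± 0.0397, or -0.0116 without knockout liver 2, and its groups overlapped. The mean of the 5 was -0.0350, 0.0223 and -0.0752 in the knockouts, against 0.0200, 0.0482, -0.0149 and 0.0130 in the wild types, a difference of -0.0459. Without knockout liver 4 it was -0.0229.

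Complex II, succinate dehydrogenase, is also an enzyme of the citric acid cycle. Its 3 measured subunits all differed downward, by -0.0523 on average (-0.0323 without knockout liver 2), and 0 had groups without overlap. Sdha, the flavoprotein that oxidises succinate, read -0.173, -0.0265 and -0.0236 in knockout livers 2, 3 and 4, against -0.0248, 0.0121, 0.0495 and 0.0164 in wild-type livers 1 to 4. Only wild-type liver 1 reached into the knockout range. The difference was -0.0878 ± 0.0394, or 1.22-fold with an interval from 0.991 to 1.51 (limma, adjusted p = 0.884), and -0.0384 without knockout liver 2. Sdhb, the iron-sulfur subunit, read -0.150, -0.0067 and -0.0809 in the knockouts, against -0.0426, 0.0584, -0.0508 and -0.0716 in the wild types, and differed by -0.0524 ± 0.0421, or by -0.0172 without knockout liver 2. Sdhc, a membrane anchor, differed by -0.0167 ± 0.0341, and by 0.00238 without knockout liver 4. With array weights, which leaned on knockout liver 3, Sdhb turned to 0.00098 and the complex mean difference was -0.0235. The mean of the complex was -0.0904, -0.0142 and -0.0468 in the knockouts, against -0.0268, 0.0560, -0.00207 and -0.0197 in the wild types, with both genotypes spread over a similar width.

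Complex III held the member with the largest difference. Uqcrfs1 read -0.342, 0.0086 and -0.125 in knockout livers 2, 3 and 4, against 0.0246, 0.0502, -0.116 and -0.0508 in wild-type livers 1 to 4. Its groups overlapped widely, and the difference of -0.130 ± 0.0794, or 1.35-fold, had an interval from 0.881 to 2.06 (limma, adjusted p = 0.884). Without knockout liver 2 it was -0.0352. Uqcrq, a small subunit, was the single member whose knockout values all lay above the wild types. It read 0.0307, 0.0351 and 0.0261 in the knockouts, against -0.0111, 0.0019, 0.0106 and 0.0152 in the wild types, and differed by 0.0265 ± 0.0159, or 1.06-fold. The core protein Uqcrc1 differed by 0.0321 ± 0.0373, cytochrome c1 (Cyc1) by -0.00755 ± 0.0309 and the small subunit Uqcr11 by -0.0385 ± 0.0314. The complex mean was -0.0278, 0.0228 and -0.0327 in the knockouts, against 0.00434, 0.0140, -0.0151 and 0.0186 in the wild types.

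Among the 12 broadly expressed genes of complex IV, cytochrome c oxidase, 7 differed downward and 5 upward, within -0.0387 and 0.0274. Cox4i1 and Cox5a, nuclear subunits around the catalytic core, differed by 0.0274 ± 0.0313 and -0.00621 ± 0.0252. Ndufa4 had the smallest p of the complex. It read -0.0342, 0.0185 and -0.0303 in knockout livers 2, 3 and 4, against 0.0265, -0.0023, 0.0257 and 0.0272 in wild-type livers 1 to 4. It differed by -0.0346 ± 0.0200 (limma, adjusted p = 0.884), and knockout 3 lay among the wild types. Cox7a2l, which links complexes III and IV into supercomplexes, differed by -0.00456 ± 0.0198. Cox6b1 and Cox7b differed by 0.00712 ± 0.0370 and -0.0191 ± 0.0379.

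Complex IV has subunits with separate genes for liver and for heart and skeletal muscle. The liver forms Cox6a1, Cox7a2 and Cox8a differed by 0.0149 ± 0.0377, -0.0387 ± 0.0323 and 0.0190 ± 0.0397. Their muscle counterparts Cox6a2, Cox7a1 and Cox8b differed by 0.0159 ± 0.0234, -0.00938 ± 0.0364 and -0.0176 ± 0.0501. The adjusted p of these 6 was 0.884 to 0.964 (limma), and liver forms were not tested against muscle forms. Cox8b varied most among the wild types, from -0.102 in liver 2 to 0.141 in liver 3. The lung form Cox4i2 read 0.0944, 0.0417 and 0.0416 in the knockouts, against 0.0033, -0.0057, 0.0190 and 0.0642 in the wild types, and differed by 0.0390 ± 0.0241. The testis forms Cox6b2 and Cox8c differed by 0.0164 ± 0.0194 and 0.00476 ± 0.0321. Whether these isoforms read above background in liver is unknown, since the ratios carry no signal level. The mean of 6 striated muscle markers was 0.0491, 0.0201 and 0.0350 in the knockouts, against 0.00207 to 0.0247 in the wild types, and their part in the muscle isoform values was not tested.

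In complex V the F1 head makes ATP, and the membrane part and stalk drive it. Of the 5 F1 genes 4 differed downward and of the 11 others 8, with medians of -0.0232 and -0.00775. The catalytic beta subunit Atp5b read -0.0396, 0.0274 and -0.0010 in knockout livers 2, 3 and 4, against -0.0346, 0.0591, -0.0127 and 0.0634 in wild-type livers 1 to 4, and differed by -0.0232 ± 0.0310. The alpha subunit Atp5a1 read -0.0402, 0.0413 and -0.0344 in the knockouts, against -0.0455, 0.0747, 0.0258 and 0.0798 in the wild types, and differed by -0.0448 ± 0.0362. In both genes the genotypes overlapped. The gamma subunit Atp5c1, averaged over 3 probes, differed by -0.0494 ± 0.0319, and by -0.0183 without knockout liver 2. Atp5pb, the b subunit of the stalk, read -0.199, 0.0031 and -0.0510 in the knockouts, against 0.0367, 0.0058, -0.0796 and 0.0248 in the wild types, and differed by -0.0794 ± 0.0504, or by -0.0209 without knockout liver 2.

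The rotor ring of complex V is built from a single protein, subunit c, that 3 genes encode with different import sequences. Atp5g1 read 0.0821, 0.0640 and 0.0376 in knockout livers 2, 3 and 4, against -0.0361, 0.0698, -0.0381 and 0.0254 in wild-type livers 1 to 4. All 3 knockouts lay above the pool, and only wild-type liver 2 reached among them. The difference was 0.0560 ± 0.0303 (limma, adjusted p = 0.884), and both probes gave nearly the same value, 0.0556 and 0.0563. Atp5g2 and Atp5g3 differed by 0.0227 ± 0.0343 and -0.0184 ± 0.0251.

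Set side by side, the complex means did not separate the genotypes. The mean difference was -0.0117 for complex I, -0.0523 for complex II, -0.0180 for complex III, -0.00731 for complex IV and -0.00908 for complex V. Complex I averaged -0.00250 ± 0.0223 across knockouts, against 0.00923 ± 0.0128 across wild types (SD, n = 3 and n = 4). Complex II averaged -0.0504 ± 0.0382 across knockouts, against 0.00186 ± 0.0376 across wild types, the widest gap of the 5. Complex IV averaged 0.0127 ± 0.0354 across knockouts, against 0.0200 ± 0.0287 across wild types. Complex V averaged 0.00813 ± 0.0271 across knockouts, against 0.0172 ± 0.0254 across wild types. Without knockout liver 4 the difference turned to 0.000633 in complex I, 0.0128 in complex IV and 0.00605 in complex V, while it was -0.0541 in complex II and -0.00799 in complex III. Without wild-type liver 4 it was 0.00289 in complex IV and 0.00165 in complex V. With array weights, which leaned on knockout liver 3, it was 0.00326 in complex III and 0.00275 in complex V.

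**Figure D4:**
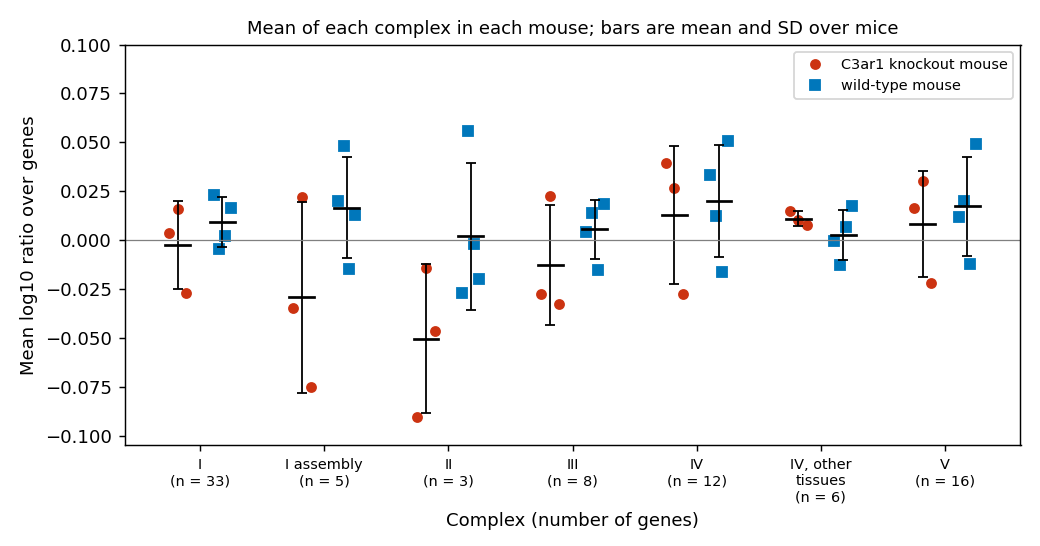
Mean log10 ratio over the genes of each complex in each mouse, with knockouts in red to the left of wild types in blue, and the mean and SD over mice in black. Knockout and wild-type mice overlap in every complex, and complex II shows the lowest single mean, -0.0904 in knockout liver 2.

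Genes holding a promoter motif differed little from the others. The median difference was -0.00395 in the 16 genes with the NRF1-type motif and -0.0122 in the matched genes without it. It was -0.00904 with the ETS-type motif and -0.0176 without it, and -0.0227 with the YY1-type motif and -0.00938 without it. These are descriptions and no test was made.

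Related mitochondrial genes were read from lists beside the subunits, and 0 of them were called (limma). At an unadjusted p under 0.05 Sdhaf4, Nubpl, Coq2 and Coq9 were lower and Pprc1 was higher. Of all features 2.66% were lower and 1.89% higher at that level, and 2.56% were lower and 2.71% higher without overlap. At any p, 42.8% of all features differed downward. Of 27 assembly factors of complexes II to V, 15 differed downward, with a median of -0.0126. Sdhaf4, which assists Sdha, differed by -0.0803 ± 0.0308 without overlap, Sdhaf3, which assists Sdhb, by -0.141 ± 0.0637 and Atpaf2, a chaperone of F1, by 0.0619 ± 0.0290, all 3 with an adjusted p of 0.884. Of 8 other complex I assembly genes 5 differed downward, and Tmem70 was in both lists. Nubpl, which delivers iron-sulfur clusters to complex I, was among the 5 and differed by -0.195 ± 0.0719. Nubpl read -0.355, -0.0237 and -0.169 in knockout livers 2, 3 and 4, against 0.0426, 0.0480, -0.0709 and 0.0315 in wild-type livers 1 to 4. The same order of knockouts was seen in members of several complexes, Ndufc2, Sdhb, Uqcrfs1 and Atp5pb among them.

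Electron donors and carriers, including the enzymes of ubiquinone synthesis, differed downward in 12 of 16 genes, with a median of -0.0426. Of all features 42.8% did. The mean difference of this list was -0.0280, and -0.0116 without knockout liver 4. Coq2, which joins the side chain to the ring of ubiquinone, read -0.0964, -0.0419 and -0.0963 in knockout livers 2, 3 and 4, against -0.0099, 0.0372, 0.0195 and -0.0279 in wild-type livers 1 to 4. All knockouts lay below all wild types, and the difference was -0.0829 ± 0.0238 (limma, adjusted p = 0.884). Coq9 and Coq6 differed by -0.0523 ± 0.0218 and -0.112 ± 0.0515. In the citric acid cycle 8 of 12 genes differed downward (median -0.0181), with a mean difference of -0.0307, and -0.0209 without knockout liver 2. The smallest p was that of Dld, the shared dehydrogenase subunit, at -0.111 ± 0.0608. Dld read -0.282, -0.0556 and -0.0758 in knockout livers 2, 3 and 4, against -0.0926 to 0.0509 in the wild types. Of 6 carriers and channels 5 differed downward, with the ADP/ATP carrier gene Slc25a5 at -0.0508 ± 0.0311. The mean difference of these 6 was -0.0304, and -0.0142 without knockout liver 2. Among 12 regulators of mitochondrial genes 7 differed downward. The coactivator gene Pprc1 read 0.135, 0.128 and 0.111 in knockout livers 2, 3 and 4, against -0.0174, 0.0247, -0.0047 and -0.0152 in wild-type livers 1 to 4. The groups lay well apart, with a difference of 0.128 ± 0.0181 (limma, adjusted p = 0.431). Tfb2m, a mitochondrial transcription factor, and Tfb1m, which methylates mitochondrial ribosomal RNA, differed by -0.0770 ± 0.0419 and -0.0825 ± 0.0464.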

How the data were processed

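The deposited values are log ratios, read as log10, for 23574 probes on 7 two-colour arrays of total liver RNA (3 C3ar1-/- and 4 wild-type mice), each against a pool of 6 wild types. RNA was purified on spin columns with DNase and labelled by an aminoallyl method, per the labels' protocols, and a dye swap is named in the design text. Background correction, normalization and log base are not given in the sources used here, and the number of arrays limits the precision. Probes were named by the platform annotation, updated by Entrez number (17724 probes) or accession (21) against GRCm38.p6, and 79 kept their symbol. All 84 members kept the annotated symbol. There were 0 unused value columns, and the arrays correlated at -0.25 to 0.607 over all probes.

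Probes of a gene were averaged and limma 3.58.1 (R 4.3.3, lmFit and eBayes, two-sided) was fitted to 22212 features, with Benjamini-Hochberg adjustment over all of them. The fit was tested on simulated data. The C3ar1 probe, whose place relative to the deletion is unknown, differed by 0.0329 ± 0.0232 (adjusted p = 0.884). Complex means have no test. Members and lists were chosen with earlier results of these data known. Named members were the 3 of smallest p per complex (2 in complex II), catalytic subunits, tissue isoforms, Ndufa4, Ndufab1, Ndufa9 and the 3 with the widest probe disagreement, plus 3 or fewer genes per related list. Ndufs7, Ndufb5, Sdhc, Atp5j and the other genes named beyond this rule were chosen after their values were seen. Alternatives were single probes, the most variable probe, platform symbols, 3 normalizations, a filter on variation, and robust and weighted fits. The others were a replicate block, which lacks wild-type liver 1, and each mouse left out.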

Additional observations from a re-analysis of the deposited data

Results flagged for a closer look

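In 4 of 53 groups of 4 wild-type values, 1 liver lay far from the other 3 by Dixon's test, and chance gives about 1 in 20. Cox7a1 was 0.0954 in wild-type liver 2, with the others between -0.0422 and -0.0316. Ndufa4 was -0.0023 in wild-type liver 2, below the other wild types. Ndufaf1 and Ndufc2 were 0.025 and 0.0406 in wild-type liver 1, above the other wild types in both.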

How the results depend on the processing

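In all 17 alternatives 0 members were called, and the adjusted p of the 41 members named by rule stayed between 0.620 and 1.00. The mean differences of the complexes moved by less than 1 SD between mice, pooled over the genotypes, but signs turned. Complexes III and V were 0.00326 and 0.00275 with array weights, and complex II shrank to -0.0235. Those weights were 0.4385, 3.22 and 0.8041 for knockout livers 2, 3 and 4. Complex III without knockout liver 3, at -0.0357, moved by more than the wild-type SD of 0.0150. The count of members below an unadjusted p of 0.05 was 3 as reported, against 4.6% of all features. It was 1 with scale normalization, with the filter on variation and with the replicate block, against 3.7%, 4.5% and 2.3% of features. The genes changed too: these were Ndufaf6, Ndufc2 and Sdha in turn. Quantile normalization gave Ndufaf6, Ndufaf1 and Sdha, and the robust fit Ndufc2 and Ndufs1. Array weights gave Ndufb9, Atp5g1 and Ndufaf1, 1 lower and 2 higher, against 6.0% of all features. The count below that p was 0 to 12 with a mouse left out. It was 12 and 1 on leaving out knockout livers 3 and 2, against 6.8% and 3.5% of all features. On leaving out wild-type livers 1 to 4 it was 0, 1, 5 and 1, against 2.8%, 4.2%, 4.8% and 4.9%. Members without overlap, 3 as reported, numbered 1 after the filter on variation and 3 to 15 with a mouse left out. They numbered 15 and 6 without knockout livers 3 and 4, and 6, 8 and 5 without wild-type livers 2, 3 and 4. Lower ones among them were 14 and 3, and 4, 5 and 3, in that order. The shares of all features lower without overlap were then 7.03% and 5.32%, and 4.48%, 4.83% and 4.84%, against 2.56% with all mice. Same-numbered mice did not vary together (r = -0.131, -0.207 and -0.150), and r ran from -0.294 to 0.323 between mice of different numbers. With so few pairs this cannot tell whether the numbers pair the mice. The replicate block used only the numbers found in both genotypes, so it left out wild-type liver 1. In that fit 4 members had no overlap, 3 of them lower, against 3.46% of all features lower. These values are the same on leaving out wild-type liver 1 without a block, so they do not come from pairing the mice. Atp5j2 and Cox6b1 turned to 0.00055 and -0.0033 in the block fit, which lacks that liver.

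Of the 41 named members, 20 kept their sign in every alternative. Signs turned in the others, Sdhb and Uqcrc1 among them: Ndufb2 turned to -0.0418 by its most variable probe. With quantile normalization Cox6a1, Cox6b1 and Cyc1 turned to -0.00502, -0.00812 and 0.00664. With scale normalization Cox6a1, Cox6b1, Cox7a2l, Cox8a, Cyc1 and Uqcrc2 turned to -0.00379, -0.00594, 0.000562, -0.00122, 0.00296 and 0.000178. With array weights Atp5b, Cox5a, Cox6a1, Cox6a2 and Cox7a1 turned to 0.00243, 0.00698, -0.0066, -0.00413 and 0.00461, and Cox7a2l, Cyc1, Ndufab1, Sdhb and Uqcrc2 to 0.0130, 0.0277, -0.0162, 0.00098 and 0.00428. With a mouse left out, ranges crossed 0 for Atp5g2 (-0.00986 to 0.0523), Atp5g3 (-0.0327 to 0.00315), Atp5j2 (-0.0341 to 0.00055), Cox5a (-0.0214 to 0.00983), Cox6a1 (-0.0272 to 0.0470), Cox6b1 (-0.0229 to 0.0384), Cox7a1 (-0.0221 to 0.0237), Cox7a2l (-0.0168 to 0.00818), Cox7b (-0.0422 to 0.0103), Cox8a (-0.0284 to 0.0536), Cox8b (-0.0582 to 0.0229), Cox8c (-0.0158 to 0.0334), Cyc1 (-0.0335 to 0.00605), Ndufa9 (-0.0214 to 0.00263), Ndufab1 (-0.0260 to 0.0378), Uqcrc1 (-0.00128 to 0.0652) and Uqcrc2 (-0.0115 to 0.00145). The cause of these changes was not tested. Depth over background is unknown for every probe.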

Other observations

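The genes that lay farthest from the pool in knockout liver 2 were followed on the other arrays. The 11 members below -0.1 there were Uqcrfs1, Ndufb5, Atp5pb, Sdha, Ndufc2, Ndufaf6, Ndufa12, Sdhb, Ndufaf5, Atp5c1 and Ndufv2, from complexes I, II, III and V and the assembly factors of complex I. All 11 lay below 0 in knockout liver 4 and 8 in knockout liver 3, against 3, 5, 10 and 9 in wild-type livers 1 to 4. Of all 84 members, 70 lay below 0 in knockout liver 4 and 21 in knockout liver 3, against 28, 41, 46 and 29 in wild-type livers 1 to 4. The median of the 11 was -0.157, -0.0135 and -0.0607 in knockout livers 2, 3 and 4, against 0.0220, 0.0058, -0.0361 and -0.0264 in wild-type livers 1 to 4.

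The 13 members above 0.1 in knockout liver 2 were led by Ndufs7, Cox8a and Ndufa5, and 4 of them belonged to complex IV. All 13 lay above 0 in knockout liver 3, but 12 lay below 0 in knockout liver 4, with a median of -0.0120 there. Of all 84 members, 63 lay above 0 in knockout liver 3 and 70 below 0 in knockout liver 4, so the share in knockout liver 4 is close to that of the members at large. In wild-type livers 1 to 4, 8, 11, 11 and 12 of the 13 lay above 0, against 56, 43, 38 and 55 of all 84 members. The share above 0 was thus larger than among all members in knockout liver 3 and wild-type livers 2 to 4. These genes were picked by their value in knockout liver 2, so that array cannot show whether they vary together. All arrays share the pool, so the values on the other arrays are not independent of that pick either. No test was made.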
